A study of Mus musculus with 18 samples.

Results

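The 32 genes described here encode the enzymes of the tricarboxylic acid (TCA) cycle and of pyruvate metabolism, together with the kinases, phosphatases and carriers that control the entry of pyruvate. They were taken from a list of names, with no threshold on a measured value, and all 32 were found among the 45706 genes of the count tables. RNA of whole mouse kidneys was sequenced 12 h after 22.5 min of bilateral ischemia, an operation in which the renal vessels are clamped and then reopened. The *Cxcl12* cohort held 5 KO and 3 control kidneys, and the *Myc* cohort held 5 of each. All mice were C57BL/6 males of 10 to 12 weeks and littermates, and all, controls included, had received doxycycline for 14 days followed by a washout of 1 week. KO mice were *Cxcl12* F/F or *Myc* F/F with the Pax8rtTA and TetOcre transgenes. Control mice carried the same floxed alleles and Pax8rtTA but lacked TetOcre. The recombinase therefore acted in tubule cells under the Pax8 promoter, while the RNA came from every cell of the kidney, and no uninjured kidney was analysed. The labels number the kidneys as replicates without saying that each came from a different mouse, so the p-values measure the spread between these kidneys.

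The pyruvate made by glycolysis enters mitochondria through the mitochondrial pyruvate carrier and is turned into acetyl-CoA by the pyruvate dehydrogenase complex, or into oxaloacetate by pyruvate carboxylase. Pyruvate dehydrogenase kinases switch the complex off by phosphorylation, and pyruvate dehydrogenase phosphatases switch it on again. The TCA cycle then oxidizes acetyl-CoA and passes electrons to the respiratory chain, on which the transport work of the proximal tubule depends. CXCL12 is a chemokine, and MYC is a transcription factor that binds the E-box sequence and is known for its targets in metabolism and growth.

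The reads assigned to genes numbered from 12918220 to 29749500 per kidney. In 6 kidneys less than 5% of the reads were unmapped and the read number was high, and these are called deeper below. They were *Cxcl12* KO 1 and 2, *Myc* KO 3 and 5 and *Myc* control 1 and 3, so the *Cxcl12* controls had none. Markers of the proximal tubule, the thick limb, the distal nephron and podocytes were counted in all 18 kidneys. *Myc* had 31.0 ± 3.95 CPM (counts of a gene divided by the TMM-scaled library size, SD, n = 5) in *Myc* KO and 94.9 ± 14.5 CPM (n = 5) in control kidneys, and fell by 1.61 on the log2 scale (adjusted p = 8.8e-05, edgeR quasi-likelihood test with Benjamini-Hochberg adjustment over all genes tested). *Cxcl12* had 32.3 ± 6.07 CPM (n = 5) in *Cxcl12* KO and 53.5 ± 7.92 CPM (n = 3) in control kidneys, with no overlap between the groups, a log2 fold change of -0.73 and an adjusted p of 0.094.

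All 32 genes were expressed well enough to be tested in both cohorts. Their levels were compared with each other as TPM, which are counts divided by exon length and scaled to the same total in every kidney. In the 8 injured control kidneys, *Mdh1*, the cytosolic malate dehydrogenase, was highest with 792 ± 78.9 TPM (SD, n = 8). *Pdk4*, the pyruvate dehydrogenase kinase induced by fasting and fatty acids, came next with 473 ± 168 TPM and ranged from 297 to 804 TPM, so it was the abundant member with the widest spread. The next genes differed by less than their spread: *Idh1* had 344 ± 53.5, *Mdh2* 329 ± 28.7, *Pcx* 322 ± 60.5, *Idh2* 318 ± 51.2 and *Ogdh* 313 ± 38.5 TPM. They encode cytosolic isocitrate dehydrogenase, mitochondrial malate dehydrogenase, pyruvate carboxylase, mitochondrial NADP isocitrate dehydrogenase and the E1 subunit of the 2-oxoglutarate dehydrogenase complex.

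At the low end stood the phosphatases and the minor isoforms. The phosphatase catalytic subunits *Pdp1* and *Pdp2* had 11.6 ± 1.19 and 8.84 ± 2.16 TPM, and the mitochondrial malic enzymes *Me2* and *Me3* had 6.14 ± 1.17 and 5.29 ± 0.65 TPM. *Ogdhl*, a paralog of *Ogdh*, was the lowest with 2.31 ± 0.48 TPM and rested on 31 to 80 counts per kidney. In length-corrected terms *Ogdh* exceeded *Ogdhl* by 99.9 to 221 times in the 18 kidneys. *Pdk4* exceeded *Pdk2*, a kinase found in most tissues, by 2.75 to 13.7 times, with a median of 5.49. The matrix enzyme *Idh2* and the cytosolic *Idh1* were nearly equal, with a ratio of 0.705 to 1.21.

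**Figure D1:**
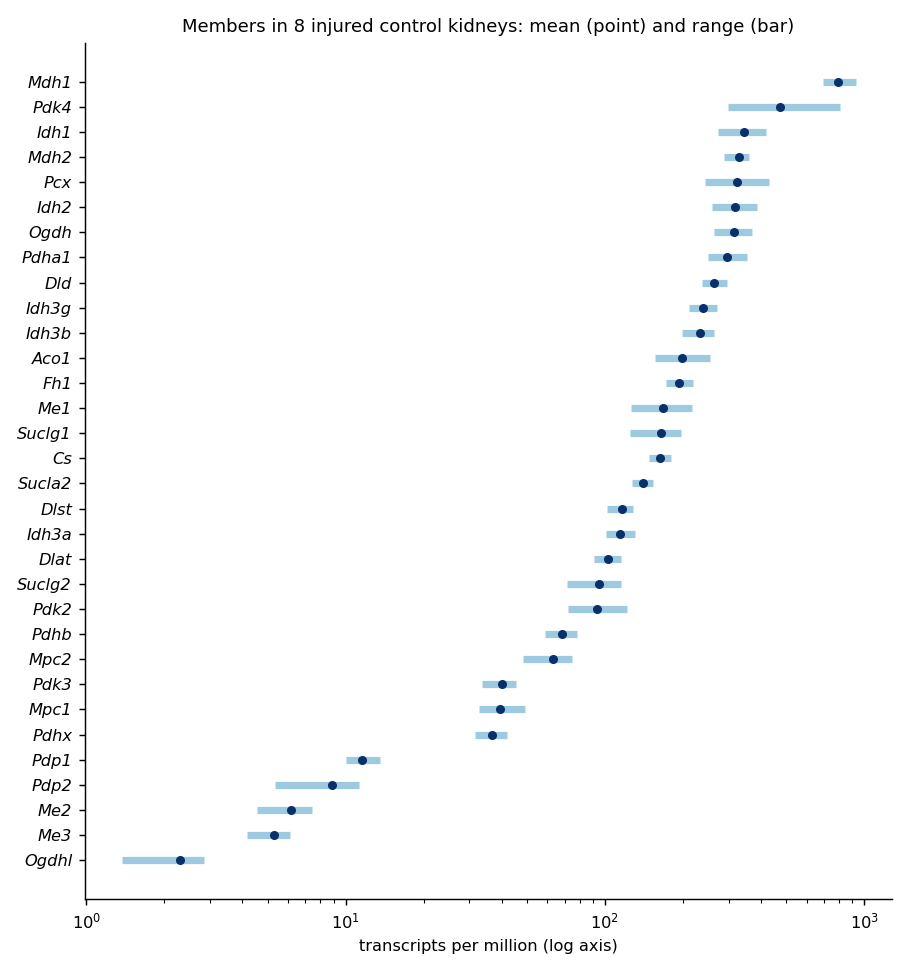
Mean level (point) and range (bar) of each of the 32 genes in the 8 injured control kidneys, in TPM on a log axis, sorted by mean. *Mdh1* stands highest at 792, *Pdk4* has a wide bar from 297 to 804, and *Ogdhl* is lowest at 2.31.

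Reads were counted without regard to strand, so reads where genes overlap on opposite strands are ambiguous and count for neither gene. The exons of *Pdha1* overlapped *Map3k15* over 16.1% of their length, those of *Mpc1* overlapped *4930506C21Rik* over 23.1%, and those of *Me3* overlapped *A230065N10Rik* over 3.89%. The values of these 3 genes are therefore less certain than those of the other members.

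The first comparison was between *Cxcl12* KO and control kidneys. None of the 32 genes changed by the edgeR quasi-likelihood test at an adjusted p under 0.05, and none did by DESeq2 or limma-voom. Over all genes edgeR called 0 of 15154 (0%), while DESeq2 called 355. At an unadjusted p under 0.05, 8 members were lower and 2 higher in KO kidneys, against 6.63% and 6.41% of all genes. The log2 fold change was below 0 in 27 members and had a median of -0.11, whereas it was below 0 in 49.8% of all genes tested, whose median was 0.00083. Without the deeper KO kidneys the median of the members was -0.16, and since no control was deeper there is no value within the deeper kidneys. Standard errors of the members were 0.082 to 0.36 on the log2 scale, with a median of 0.11. In 4 members every KO kidney lay below every control kidney, namely *Pdp2*, *Idh3b*, *Ogdhl* and *Suclg1*, and in 0 every KO kidney lay above, against 4.72% and 4.96% of all genes.

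Markers of the proximal tubule and of tubular injury differed in summed level between the same groups, although no gene of these lists passed the test. Summed markers of the thick limb overlapped, at 2271 to 4113 CPM in *Cxcl12* KO and 3049 to 3840 CPM in control kidneys. Those of the distal nephron overlapped too, at 811 to 1449 and 1024 to 1311 CPM. The summed level of 10 proximal tubule markers was 5522 to 6519 CPM in *Cxcl12* KO and 6647 to 7921 CPM in control kidneys, and 9 of the 10 had a lower mean in KO kidneys. None of these 10 was at 0 in any kidney, and none of them had an adjusted p under 0.13. The summed level of 4 tubular injury markers, *Havcr1*, *Lcn2*, *Krt20* and *Sox9*, was 2590 to 3146 CPM in KO and 1613 to 2440 CPM in control kidneys, and all 4 had a higher mean in KO kidneys. Muscle RNA was a trace, at 0.0758 to 3.84 CPM in KO and 7.02 to 21.0 CPM in control kidneys for the sum of 3 markers. The part of these shifts in the values below was not tested, and in whole kidneys fewer cells of a type and less RNA per cell cannot be told apart.

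Within the pyruvate dehydrogenase complex, *Pdhb* encodes the beta subunit of E1. It had 89.0, 78.9, 78.0, 64.9 and 78.9 CPM in *Cxcl12* KO 1 to 5 and 93.3, 86.6 and 94.3 CPM in the controls. Most KO kidneys were lower and KO 1 lay among the controls. Its log2 fold change was -0.23 ± 0.10 (SE, as for every log2 fold change below, adjusted p = 0.36, edgeR quasi-likelihood test). The other subunits, *Pdha1*, *Dlat*, *Pdhx* and *Dld*, had log2 fold changes of -0.11 to -0.04 and overlapping groups.

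The regulators of this complex differed in both directions. *Pdk4* had 1265, 653, 380, 1215 and 990 CPM in the 5 KO kidneys and 524, 338 and 677 CPM in the controls. The levels of 3 KO kidneys exceeded every control, while KO 2 and KO 3 lay within the control range. The log2 fold change was 0.81 ± 0.36 (adjusted p = 0.37, edgeR quasi-likelihood test), with a 95% interval from 0.018 to 1.60. *Pdk2* went the other way, with 113, 83.2, 89.4, 79.8 and 86.7 CPM in KO and 105, 111 and 127 CPM in control kidneys. KO 1 overlapped the controls and the other 4 lay below them, and its log2 fold change was -0.34 ± 0.12 (adjusted p = 0.27, edgeR quasi-likelihood test). *Pdk3*, a further kinase of the same family, had a log2 fold change of -0.001. The ratio of *Pdk2* to *Pdk3* within a kidney was 1.98 to 2.47 in KO and 2.73 to 3.20 in control kidneys, without overlap.

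The phosphatases that undo the work of these kinases differed in opposite directions. *Pdp2* (ENSMUSG00000048371, chr8:104591451-104599026, GRCm38) had 11.9, 13.5, 14.7, 14.1 and 18.4 CPM in KO and 19.97, 18.6 and 18.8 CPM in control kidneys. All KO kidneys lay below the controls, KO 5 only just, which gave a log2 fold change of -0.41 ± 0.13 (adjusted p = 0.24, edgeR quasi-likelihood test). *Pdp1* had 20.3, 20.2, 19.8, 15.0 and 19.3 CPM in KO and 15.8, 16.3 and 15.0 CPM in control kidneys, so KO 4 lay with the controls and the others above them. Its log2 fold change was 0.27 ± 0.12 (adjusted p = 0.37, edgeR quasi-likelihood test). The ratio of *Pdp1* to *Pdp2*, per length, was 1.33 to 2.16 in KO and 1.00 to 1.10 in control kidneys. These 2 ratios were the only ones of 10 computed whose groups did not overlap, and no test was run on them.

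Among the carriers and the carboxylase, *Mpc2*, a subunit of the mitochondrial pyruvate carrier, had 143, 116, 141, 136 and 158 CPM in KO and 170.1, 153 and 176 CPM in control kidneys. Only KO 5 exceeded the lowest control. Its log2 fold change was -0.27 ± 0.10 (adjusted p = 0.32, edgeR quasi-likelihood test). Its partner *Mpc1* and the carboxylase *Pcx* had log2 fold changes of 0.08 and -0.27, with overlapping groups.

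In the cycle itself, the first steps are made by citrate synthase and aconitase. *Cs* had the lowest spread within groups of the 32 genes over all 18 kidneys (pooled SD of 0.069 on the log2 scale), and in this cohort it had 280 to 335 CPM in KO and 319.9 to 322 CPM in control kidneys. *Aco1*, the cytosolic aconitase that also binds iron-responsive RNA elements, had 307, 283, 273, 319.7 and 279 CPM in KO and 354, 318 and 353 CPM in control kidneys. KO 4 alone passed the lowest control, and the log2 fold change was -0.23 ± 0.091 (adjusted p = 0.33, edgeR quasi-likelihood test).

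*Idh3a*, *Idh3b* and *Idh3g* encode the subunits of the NAD-dependent isocitrate dehydrogenase, a regulated step of the cycle. *Idh3b* (ENSMUSG00000027406, chr2:130279309-130284547) had 259, 232, 240.1, 255 and 254 CPM in KO and 269, 266 and 298 CPM in control kidneys. The groups were separate but close, and the log2 fold change was -0.17 ± 0.085 (adjusted p = 0.43, edgeR quasi-likelihood test). The catalytic subunit *Idh3a* spread more, at 137 to 221 CPM in KO and 181 to 206 CPM in control kidneys, and had a log2 fold change of -0.20. *Idh3g* had -0.09. The NADP-dependent *Idh2*, which supplies NADPH in the matrix, had 267, 234, 264, 269 and 221 CPM in KO and 311, 265 and 330.5 CPM in control kidneys, and KO 1 and KO 4 just passed the lowest control. Its log2 fold change was -0.27 ± 0.11 (adjusted p = 0.33, edgeR quasi-likelihood test), and that of the cytosolic *Idh1* was -0.20.

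*Ogdhl* (ENSMUSG00000021913, chr14:32322019-32348151) had the most negative value of all members. It had 2.20, 2.16, 2.41, 2.89 and 2.17 CPM in KO and 3.26, 2.91 and 3.89 CPM in control kidneys. KO 4 and control 2 nearly touched, and the log2 fold change was -0.51 ± 0.20 (adjusted p = 0.32, edgeR quasi-likelihood test). The far more abundant *Ogdh* and the E2 subunit *Dlst* had log2 fold changes of -0.14 and -0.08.

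*Suclg1* (ENSMUSG00000052738, chr6:73248382-73276911) encodes the alpha subunit shared by both forms of succinyl-CoA ligase, and had the lowest adjusted p of all members. It had 246, 217, 217, 241 and 223 CPM in KO and 281, 255 and 292 CPM in control kidneys, without overlap. A log2 fold change of -0.27 ± 0.088 was estimated (adjusted p = 0.24, edgeR quasi-likelihood test). The beta subunits *Suclg2* and *Sucla2*, which set the preference for GTP or ATP, had -0.08 and -0.06.

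Fumarase, *Fh1*, was singled out after its values were seen. It had 277, 202, 246, 252 and 422 CPM in *Cxcl12* KO and 229, 186 and 241 CPM in control kidneys. KO 5 stood far above the rest, and the log2 fold change was 0.35 ± 0.21 (adjusted p = 0.50, edgeR quasi-likelihood test) with that kidney and 0.15 without it. The malate dehydrogenases *Mdh1* and *Mdh2* had -0.16 and -0.05, and the malic enzymes *Me1*, *Me2* and *Me3* had -0.03, 0.13 and -0.21, all with overlapping groups.

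**Figure D2:**
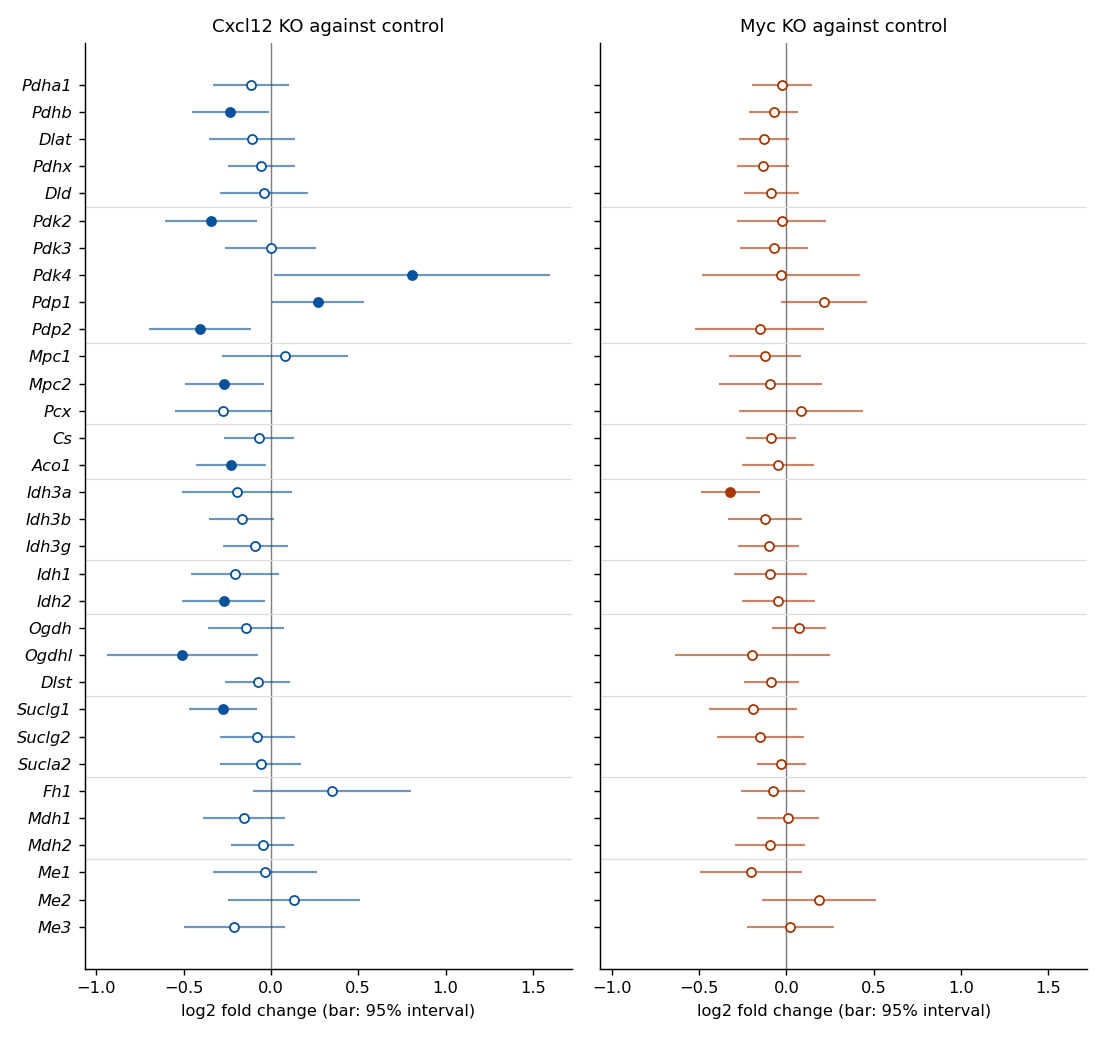
Log2 fold change (point) of each of the 32 genes in *Cxcl12* KO (left, 5 against 3 kidneys) and *Myc* KO (right, 5 against 5) with its 95% interval (bar), by role from the pyruvate dehydrogenase complex at the top to the malic enzymes at the bottom. Filled points have an unadjusted p under 0.05, 10 genes on the left and *Idh3a* alone on the right, and none passed the adjusted threshold.

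The second comparison was between *Myc* KO and control kidneys. Here too none of the 32 genes changed by the edgeR quasi-likelihood test at an adjusted p under 0.05. DESeq2 called 1, *Idh3a*, among 1139 genes in all, and limma-voom called 0 of the 32. Over all genes edgeR called 246 of 14936 (1.65%), of which 193 were lower (1.29%) and 53 higher (0.355%). At an unadjusted p under 0.05, 1 member was lower and 0 were higher, against 11.2% and 10.6% of all genes. The log2 fold change was below 0 in 26 members, with a median of -0.09, against 50.1% of all genes and a median of -0.00083. The members' median was -0.08 within the deeper kidneys (2 against 2) and -0.08 without them. The 95% intervals of all members lay between -0.64 and 0.51 on the log2 scale. The summed proximal tubule markers overlapped between the groups, at 4725 to 7717 CPM in KO and 5180 to 6564 CPM in control kidneys, and so did the tubular injury markers, at 2858 to 3345 and 2586 to 3386 CPM. Of these 4 markers 3 had a lower mean in *Myc* KO kidneys, among them *Havcr1* with 203 CPM against 507 CPM (adjusted p = 0.12, edgeR quasi-likelihood test).

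*Idh3a* (ENSMUSG00000032279, chr9:54586334-54604661) was the only member whose *Myc* groups did not overlap, against 3.92% of all genes. No member had every KO kidney above every control, against 2.05% of all genes. It had 150.0, 139, 161, 141 and 167 CPM in *Myc* KO 1 to 5 and 184, 192, 178, 207 and 188 CPM in control 1 to 5. The highest KO kidney, KO 5, lay below the lowest control, control 3. The log2 fold change was -0.32 ± 0.078 (adjusted p = 0.061, edgeR quasi-likelihood test), a change of -19.9% with a 95% interval from -28.8% to -9.94%. The adjusted p was 0.0020 by DESeq2, 0.028 after a correction for GC content and length, 0.030 with the deeper kidneys as a covariate and 0.037 without *Myc* control 3. In the other 17 alternatives it was above 0.05, from 0.057 without the deeper kidneys to 0.67 within them, and limma-voom gave 0.057.

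The difference in this gene was smaller among the deeper kidneys, a contrast that was not itself tested. KO 3 and KO 5, the highest of their group, and control 1 and control 3, the lowest of theirs, were all deeper. Among the deeper kidneys alone (2 against 2) the log2 fold change of *Idh3a* was -0.13, and among the other 6 kidneys it was -0.44 (adjusted p = 0.057, edgeR quasi-likelihood test). It was below 0 in each subset and its size differed more than 1.5 times between them. Of the other marker lists, all 4 podocyte markers and 9 of 10 leukocyte markers had a higher mean in *Myc* KO kidneys, with summed levels of 492.7 to 613 against 322 to 554 CPM and of 211 to 297 against 122 to 273 CPM. A higher mean was also found for 7 of 10 proximal tubule, 3 of 4 thick limb and 5 of 6 distal nephron markers. It was found for 4 of 5 endothelial, 7 of 7 adipocyte, 3 of 3 muscle, 3 of 4 adrenal, 2 of 4 stromal and 0 of 3 erythroid markers. The adrenal markers *Cyp11b1*, *Cyp11a1* and *Cyp21a1* had at most 2 counts in any kidney, so their means rest on almost no reads. The part of these lists in the value of *Idh3a* was not tested.

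The other subunits of isocitrate dehydrogenase did not separate. *Idh3b* had 208 to 257 CPM in *Myc* KO and 226 to 299.9 CPM in control kidneys, with a log2 fold change of -0.12 ± 0.098 (adjusted p = 0.49, edgeR quasi-likelihood test). *Idh3g* had a log2 fold change of -0.10. *Suclg1* had 232, 233, 173, 211 and 179 CPM in KO and 209, 253, 199.96, 279.8 and 234 CPM in control kidneys. KO 3 and KO 5, both deeper, were the low ones, and the log2 fold change was -0.19 ± 0.12 (adjusted p = 0.36, edgeR quasi-likelihood test).

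The kinases and phosphatases overlapped between the *Myc* groups. *Pdk4* had 524, 582, 589, 456 and 640 CPM in KO and 913, 546, 417, 612 and 365 CPM in control kidneys. Its controls spread wider than its KO kidneys, and its log2 fold change was -0.03 ± 0.21. *Pdp1* had 19.1, 18.7, 20.6, 23.1 and 24.9 CPM in KO and 16.7, 18.8, 21.3, 15.6 and 19.6 CPM in control kidneys, with the highest levels in KO 4 and KO 5. Its log2 fold change was 0.21 ± 0.11 (adjusted p = 0.28, edgeR quasi-likelihood test). *Pdk2*, *Pdk3* and *Pdp2* had -0.03, -0.07 and -0.15, and none of the 10 ratios between members separated the *Myc* groups.

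Of the remaining members that stood out in the *Cxcl12* cohort, *Pdhb*, *Mpc2*, *Aco1*, *Idh2* and *Ogdhl* had log2 fold changes in *Myc* KO of -0.07, -0.09, -0.05, -0.05 and -0.19, with adjusted p values from 0.54 to 0.81 (edgeR quasi-likelihood test). *Dlat* and *Pdhx*, subunits of the pyruvate dehydrogenase complex, had -0.13 and -0.14, and all 5 KO kidneys were below the control mean for each. *Me1*, the cytosolic malic enzyme that yields NADPH, had -0.20, and *Me2* had 0.19. *Mdh1*, the most abundant member, had 0.01.

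**Figure D3:**
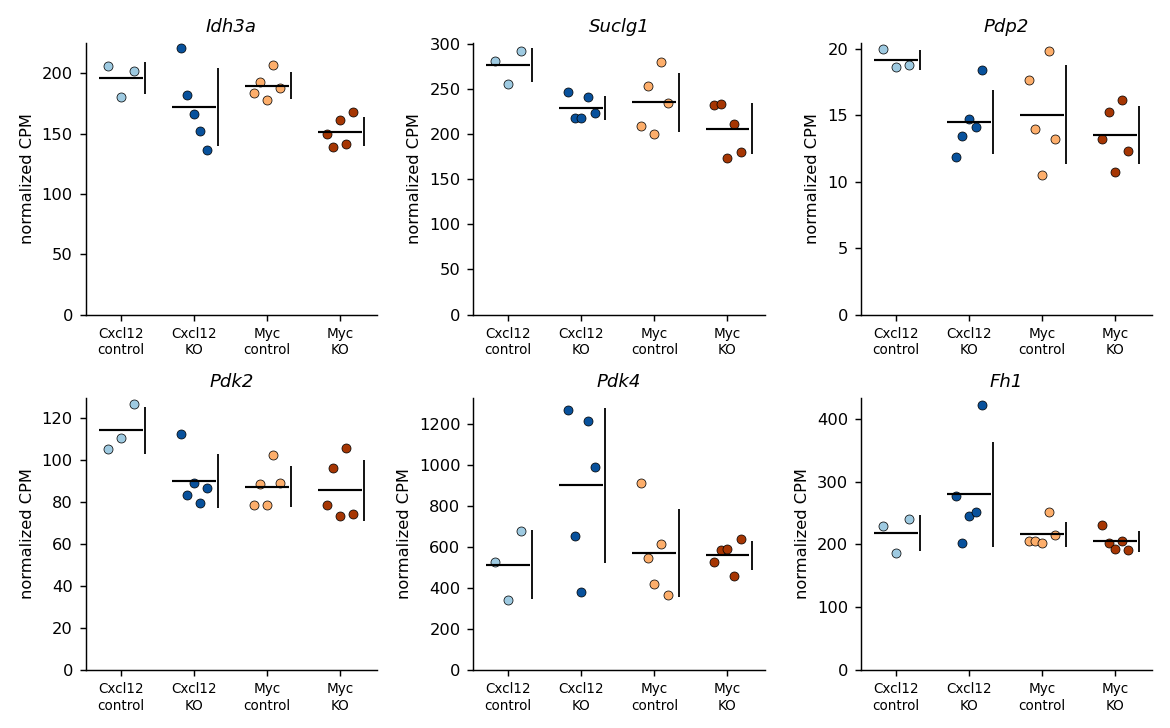
Normalized CPM of *Idh3a*, *Suclg1*, *Pdp2*, *Pdk2*, *Pdk4* and *Fh1* in each of the 18 kidneys (points), with group means (horizontal lines) and SD (vertical lines), and axes that start at 0. The *Cxcl12* groups separate for *Suclg1* and *Pdp2*, the *Myc* groups for *Idh3a*, and 1 *Cxcl12* KO kidney is far above the rest for *Fh1* at 422 CPM.

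MYC binds the E-box CACGTG, so the start regions of the 32 genes were searched for it in RefSeq promoter sequences, from 250 bases before to 50 after each annotated start (build GRCm38.p6). Sequences were found for 29 genes in 39 windows, not for *Pdp1*, *Idh3a* or *Me2*. The E-box, which reads alike on both strands, occurred in 5 of the 29 genes, against 8.09% of 27025 genes, and in 7 of the 39 windows (17.9%, some of which overlap) against 7.15% of 32851 windows of the same length. The 30 bases around each are printed from 5′ to 3′ on the strand of the gene, with the E-box in capitals, because the *Myc* comparison bears on these genes.
*Pdk2* at chr11:95041480-95041509, minus strand: ctcgaggagagcCACGTGtcgaagcgcaag
*Pdp2* at chr8:104591241-104591270, plus strand: ggggaagagcccCACGTGacgacctactgg
*Pcx* at chr19:4510222-4510251, plus strand: ccCACGTGaggctttcaagaaaagagagta
*Ogdh* at chr11:6292048-6292077, plus strand: gtcgcggcgtgtCACGTGgaccggtcgctc
*Ogdh* at chr11:6292405-6292434, plus strand: ggcaagaatcctCACGTGgataccatgtaa
*Ogdhl* at chr14:32322002-32322031, plus strand: cggcggccgtgtCACGTGacctaggtaatt

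The first base of the E-box lay between positions -248 in *Pcx* and -5 in *Ogdhl* relative to an annotated start. In *Myc* KO kidneys the log2 fold changes were -0.03 for *Pdk2*, -0.15 for *Pdp2*, 0.08 for *Pcx*, 0.07 for *Ogdh* and -0.19 for *Ogdhl*. None of these 5 genes passed the test. All 32 members, these 5 included, ranged from -0.32 to 0.21, and members with and without an E-box were not compared. A further 3 motifs were looked for on both strands. The NRF1 core TGCGCA occurred in *Dld*, *Mpc2*, *Ogdh* and *Mdh2* (8.79% of all genes), the ETS motif CCGGAAG in *Mpc1*, *Idh3b*, *Idh3g* and *Dlst* (9.93%), and the ERR core AAGGTCA in *Ogdh* (5.38%). No match overlapped another, and a match describes letters in a window and not binding.

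The third comparison set the effects of the KOs against each other over all 18 kidneys. No member differed between the *Myc* and the *Cxcl12* effect by the edgeR quasi-likelihood test at an adjusted p under 0.05, by DESeq2 or by limma-voom, and 0 did at an unadjusted p under 0.05, against 11.4% of all genes. Over all genes 11 of 15903 were called (0.0692%). The difference was largest for *Pdk4*, at -0.84 ± 0.44 (adjusted p = 0.48), and was -0.43 ± 0.22 for *Fh1*. The log2 fold change was below 0 in both KOs for 23 members and above 0 in both for 2, *Pdp1* and *Me2*. It was below 0 in *Cxcl12* KO alone for 4 members and in *Myc* KO alone for 3. The same counts were not made over all genes, so they describe the members only. A p that misses the threshold does not show that the effects were equal.

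Several kidneys were high or low for many of the 32 genes at once. *Cxcl12* control 3 was the highest of its 3 kidneys for 23 of 32 members and control 2 the lowest for 25. *Myc* control 4 was the highest of 5 for 24 members, and *Cxcl12* KO 1 the highest of 5 for 18. The median deviation of the members from their mean over all 18 kidneys, in log2 units, was 0.21, 0.12 and 0.04 in *Cxcl12* control 3, 1 and 2. It was 0.14 in *Myc* control 4 and from -0.10 to 0.01 in the other *Myc* controls. The lowest kidneys were *Myc* KO 3 and KO 5, at -0.15 and -0.14. Without *Myc* control 4 the median log2 fold change of the members in *Myc* KO was -0.03, and without *Cxcl12* control 3 that in *Cxcl12* KO was -0.07. Without *Cxcl12* KO 1 it was -0.17. Each of these omissions changed the size of the median, and its sign stayed below 0.

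**Figure D4:**
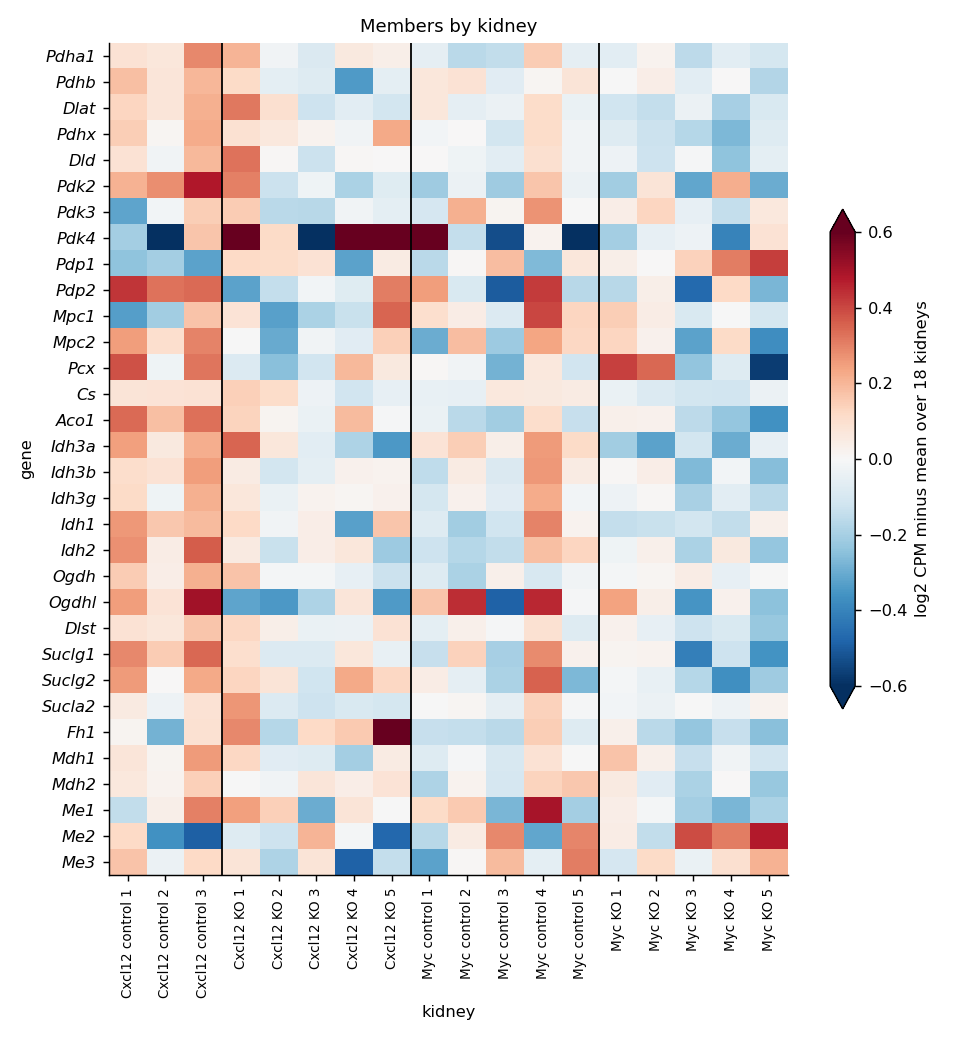
Log2 CPM of each of the 32 genes in each kidney minus its mean over the 18 kidneys, with genes in rows, kidneys in columns by group and colours limited at -0.6 and 0.6. Columns are mostly red in *Cxcl12* control 1 and 3, *Cxcl12* KO 1 and *Myc* control 4 and mostly blue in *Myc* KO 3 and KO 5, while *Pdk4* and *Me2* follow patterns of their own.

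The 32 genes leave out several enzymes of the same pathways, and 39 of these were read from the same fits: succinate dehydrogenase, lipoate synthesis, carriers of citrate and dicarboxylates, and enzymes that feed or drain the cycle. In *Cxcl12* KO kidneys none of the 39 changed at an adjusted p under 0.05 (edgeR quasi-likelihood test), while DESeq2 called 5, among 355 genes in all, and limma-voom 0. At an unadjusted p under 0.05, 10 were lower and 1 was higher, against 6.63% and 6.41% of all genes. The median log2 fold change was -0.16, and 31 were below 0, against 49.8% of all genes. *Slc13a3*, the dicarboxylate transporter of the basolateral membrane, had 225, 205, 258, 209 and 186 CPM in KO and 409, 344 and 388 CPM in control kidneys. The highest KO kidney lay well below the lowest control, and the log2 fold change was -0.82 ± 0.11 (adjusted p = 0.062 by edgeR's quasi-likelihood test and 8.7e-08 by DESeq2).

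Other genes on this list also had an unadjusted p under 0.05 in *Cxcl12* KO kidneys. *Dhtkd1*, which oxidizes 2-oxoadipate in lysine breakdown, had a log2 fold change of -0.72 ± 0.15, *Acss2*, an acetyl-CoA synthetase, -0.48 ± 0.11, and the mitochondrial dicarboxylate carrier *Slc25a10* -0.43 ± 0.10. The 2-oxoglutarate carrier *Slc25a11* had -0.35 ± 0.090, and KO and control kidneys did not overlap for any of these 4. With *Slc13a3*, every KO kidney lay below every control for 5 of the 39 genes, against 4.72% of all genes. DESeq2 called the same 5. *Sirt3*, *Acss1*, *Adhfe1* and *Slc25a12* had log2 fold changes of -0.37, -0.28, -0.27 and -0.23. The only one that was higher was *Acod1*, the itaconate-forming enzyme of activated macrophages, at 0.762 ± 0.438 CPM in KO and 0.261 ± 0.107 CPM in control kidneys, a log2 fold change of 1.47 ± 0.56 (adjusted p = 0.32, edgeR quasi-likelihood test). Its levels, with controls at 0.166, 0.377 and 0.239 CPM, lay below every level of *Ogdhl*, so this value rests on few counts. Every KO kidney lay above every control for *Acod1* alone of the 39, against 4.96% of all genes. Of 10 leukocyte markers 7 had a higher mean in the same KO kidneys, with a summed level of 97.0 to 186 CPM against 91.0 to 100.4 CPM in controls. *Ly6g*, *Cd3e* and *Cd79a* were too low to be tested, and none of the other leukocyte markers passed the test. The proximal tubule markers are given above, and the part of either list in these values was not tested.

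In *Myc* KO kidneys 1 of the 39 genes changed, *Pck2*, the mitochondrial phosphoenolpyruvate carboxykinase, against 1.65% of all genes. At an unadjusted p under 0.05, 5 were lower and 0 higher, against 11.2% and 10.6% of all genes. *Pck2* had 16.7, 22.5, 20.2, 18.9 and 17.8 CPM in KO and 31.0, 27.7, 23.6, 37.7 and 28.5 CPM in control kidneys, and every KO kidney lay below every control, as in 3.92% of all genes. It fell by 0.62 ± 0.12 on the log2 scale (adjusted p = 0.031, edgeR quasi-likelihood test). The adjusted p was 0.00053 by DESeq2 and from 0.015 to 0.094 by edgeR when 1 kidney was left out. It stayed under 0.05 without *Myc* control 1 or control 3 and was above 0.05 when any 1 of the other 8 kidneys was left out. *Lipt2* and *Lipt1*, genes of the pathway that provides the dehydrogenase complexes with lipoate, had log2 fold changes of -0.61 ± 0.18 and -0.52 ± 0.18. The citrate carrier *Slc25a1* had -0.25 ± 0.086. These 3 had an unadjusted p under 0.05 and adjusted p values from 0.095 to 0.14 (edgeR quasi-likelihood test). The 4 subunits of succinate dehydrogenase, *Sdha*, *Sdhb*, *Sdhc* and *Sdhd*, had log2 fold changes of -0.18 to -0.13 in *Cxcl12* KO and of -0.22 to 0.09 in *Myc* KO kidneys, with overlapping groups.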

How the data were processed

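Total RNA of 18 mouse kidneys was sequenced. The authors trimmed the reads with Trimmomatic 0.32 and aligned and counted them with STAR 2.4.0 on GRCm38 (submitters' processing notes), and the deposited values are raw counts per gene, not normalized. Multi-mapping and unassigned reads, 29.4% to 32.6% per kidney, were not on genes and stayed out of library sizes. Either strand's column held 51.8% to 52.8% of the unstranded column, which was used. The study also adjusted for batch effects, but its batches are not given in the sources used here.

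KO and control kidneys of each cohort were compared with edgeR 4.0.16 in R 4.3.3 (filterByExpr, TMM, quasi-likelihood F-test, Benjamini-Hochberg over all genes tested). The difference between the KO effects was fitted over all 18 kidneys. Alternatives used DESeq2 1.42.0 and limma 3.58.1. CPM are counts relative to the TMM-scaled library. TPM used exon lengths of GENCODE vM21. In each of 33 pairs within groups, the kidneys differed beyond counting noise, so no library was treated as deposited a second time, which does not show that they came from separate mice. Fits were tested on simulated data. Tables and figures used Python 3.11.15, pandas 2.3.3 and matplotlib 3.10.9.

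The members and the other lists were chosen with earlier results of these data known. Members with an unadjusted p under 0.05 in any comparison, or with groups that did not overlap, are given in full, the others by range or fold change. Other pathway genes are named at an unadjusted p under 0.05, and the succinate dehydrogenase subunits were added after their values were seen. Some genes counted in that list are not reported here.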

Additional observations from a re-analysis of the deposited data

Results flagged for a closer look

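In groups of 5 kidneys, 1 kidney lay apart from the others by Dixon's test for *Pdp1*, *Idh1*, *Sucla2* and *Fh1*, that is in 4 of the 96 groups tested. Chance alone flags about 1 in 20 groups, so this number is near the chance rate. The level of *Pdp1*, a phosphatase that activates pyruvate dehydrogenase, was 15.0 CPM in *Cxcl12* KO 4 and 19.3 to 20.3 CPM in the other *Cxcl12* KO kidneys. *Idh1*, the cytosolic isocitrate dehydrogenase, had 304.7 CPM in *Myc* KO 5 and 269 to 276 CPM in the other *Myc* KO kidneys. *Sucla2*, the ATP-forming succinyl-CoA ligase subunit, had 219 CPM in *Cxcl12* KO 1 and 167 to 173 CPM in the others. *Fh1*, fumarase, had 251.3 CPM in *Myc* control 4 and 203 to 215 CPM in the other *Myc* controls. Its level of 422 CPM in *Cxcl12* KO 5, described above as far from the rest, was not flagged by this test. *Cxcl12* KO 1 and *Myc* control 4 were also high for many other members.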

How the results depend on the processing

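The correlations of same-numbered kidneys were -0.03 to 0.13 (3 pairs, mean 0.07) in the *Cxcl12* and -0.21 to 0.40 (5 pairs, mean 0.05) in the *Myc* cohort. Those of differently numbered kidneys were -0.13 to 0.19 (mean -0.02) and -0.52 to 0.48 (mean -0.01). So few pairs cannot decide whether the replicate numbers pair the kidneys. With the replicate number as a block, 0 members were called in either cohort, the members' median log2 fold changes were -0.09 (*Cxcl12*) and -0.08 (*Myc*), and *Pck2* lost its call (adjusted p = 0.086, edgeR quasi-likelihood test). No member was called in *Cxcl12* KO kidneys, or for the difference between the KO effects, under any alternative. In *Myc* KO kidneys 1 member, *Idh3a*, was called by DESeq2, with the GC and length correction and with the deeper kidneys as a covariate, and 0 to 1 when 1 kidney was left out. The median of the members ranged from -0.17 to -0.07 in *Cxcl12* and from -0.10 to -0.03 in *Myc* KO kidneys when 1 kidney was left out, and was -0.04 in *Myc* KO with the GC and length correction. Of the 39 other pathway genes, *Cxcl12* calls were 5 by DESeq2, 3 without a filter, 2 with the covariate and 1 with the correction, and *Myc* calls were 0 to 3. Values near 0 in *Myc* KO kidneys changed sign. *Aco1* was 0.011 without the deeper kidneys and -0.091 to 0.0046 when 1 kidney was left out. *Idh2* was 0.011 with the GC and length correction, 0.015 with block and correction, and -0.081 to 0.0076 when 1 kidney was left out. *Pdk2* was 0.013 with the correction, 0.0054 with block and correction, 0.014 without the deeper kidneys, and -0.12 to 0.034 when 1 kidney was left out. *Pdk4* was 0.019 with the correction, 0.035 by limma-voom, 0.038 with the block, 0.083 with block and correction, 0.044 without the deeper kidneys, and -0.15 to 0.20 when 1 kidney was left out. The number of genes called over the whole table moved far more. It went from 246 in the *Myc* cohort to 1139 by DESeq2, 394 with the correction, 954 with the covariate, 683 in 1 fit over all kidneys, 18 with the block, 144 with block and correction, 8 without the deeper kidneys, 0 within them, and 21 to 877 when 1 kidney was left out. In the *Cxcl12* cohort it went from 0 to 355 by DESeq2, 214 without a filter, 123 with the covariate, 80 without the deeper kidneys, 25 in 1 fit, 15 with the correction and 0 to 15 when 1 kidney was left out. For the difference it went from 11 to 314 by DESeq2, 133 with the covariate, 44 without the deeper kidneys, 34 with the correction, 3 by limma-voom, 1 with the block, 1 with block and correction, and 1 to 75 when 1 kidney was left out. Apart from the smaller number of kidneys where some were left out, the cause of these shifts was not tested. The comparison within the deeper kidneys and the alternatives for *Fh1* were chosen after seeing the data. Depth limits *Ogdhl* most, at 31 to 80 counts.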
